A study of Rattus norvegicus with 4 samples.

Results

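The 47 genes described here are 46 genes of proteins that bind pre-messenger RNA or form the machinery that splices it, and 1 pseudogene. They are all genes on the array whose single platform symbol begins with Srsf and a digit, Hnrnp, Sf3a or Sf3b and a digit, or Snrp, out of 14218 genes with such a symbol. By symbol they fall into 11 genes of SR proteins, 17 of hnRNPs, 9 of the SF3A and SF3B complexes and 10 of small nuclear ribonucleoproteins (snRNPs). They were picked by name, not by any measured value.

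The RNA came from neurospheres, floating clusters grown from dissociated retinal cells of pooled Sprague Dawley rat embryos at embryonic day 18. One group was cultured with epidermal growth factor (EGF) and the other with EGF plus medium conditioned by endothelial cells (ECCM), so all cultures held EGF. There were 2 arrays per group, labelled as biological replicates, and the repeat of both conditions came from a second pool of embryos, without a statement of which numbered array came from which pool. The labels give neither the dose of EGF nor which endothelial cells conditioned the medium, and each array averages over all cells of a culture.

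Splicing removes introns in steps. The U1 snRNP pairs with the 5' splice site, the U2 snRNP with its SF3A and SF3B complexes settles on the branch point, and a ring of Sm proteins forms the core of each of these particles. SR proteins bind exons and mostly recruit the machinery, hnRNPs coat the transcript and often oppose them, and the balance of both helps to set which exons are kept. In the nervous system, regulators such as the Rbfox, Celf and Elav proteins add the exon choices of neurons. The array measured how much RNA of each factor was present, not which exons were joined.

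Values are log2 levels after quantile normalization, which gives the 4 arrays one common distribution. Differences are conditioned medium minus EGF alone, with limma's standard error (SE), and were tested over the 11492 genes bright enough to test. A gene is said to have risen or fallen only where limma's adjusted p was under 0.05 in the same direction under 3 scalings of the arrays, namely quantile normalized, deposited and median-centred values. The median difference of all genes was 0.40 log2 as deposited, 0.00 log2 quantile normalized and -0.16 log2 median-centred. With 2 arrays per group the p-values measure at most the spread between these cultures. On deposited values limma took each gene's SE from its mean intensity alone, so those p-values do not measure the gene's own spread.

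Of the 47 genes, 45 were bright enough to be tested. By the rule 2 rose, the SR protein gene Srsf9 (1.77-fold) and the hnRNP gene Hnrnpf (1.49-fold), and 0 fell (limma, also 2 and 0 at an unadjusted p under 0.05 under all 3 scalings). Of all genes tested, 9.12% rose and 1.78% fell. At an unadjusted p under 0.05 under all 3 scalings (limma), 1353 of the 11492 genes were higher and 269 lower. The median difference of the 45 was 0.04 log2, from -0.35 to 0.83, beside a range of -2.41 to 4.04 over all genes. These 2 genes were also the only ones of the 45 that differed by over 0.5 log2, beside 19.2% of all genes. For 38 of the 45 (84.4%) the 95% interval of the difference lay within 0.5 log2 of 0, which was so for 50.2% of all genes. The splicing genes had bright probe sets, with a median deposited level of 11.4 log2 against 8.59 log2 over all genes tested.

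**Figure D1:**
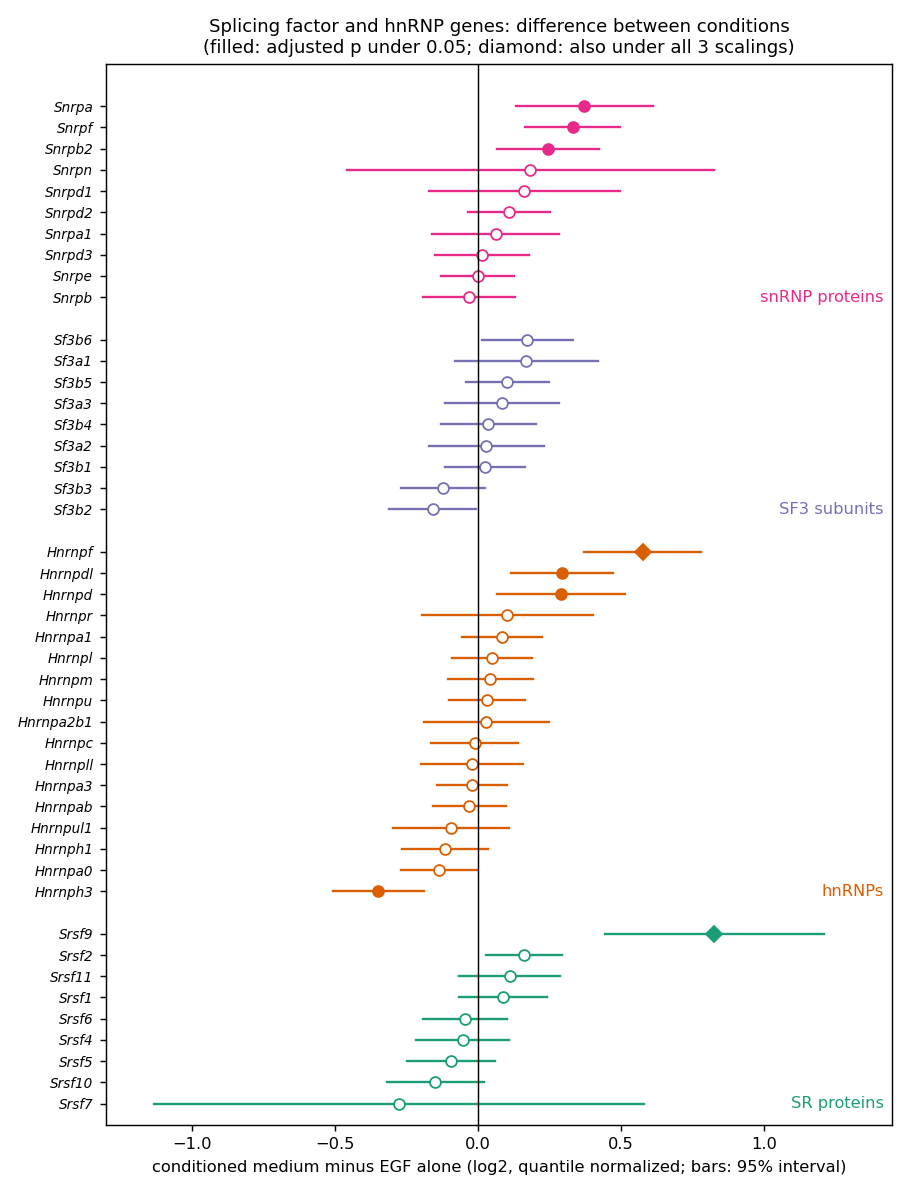
Each row is 1 of the 45 tested genes, grouped by symbol; the point is the log2 difference, conditioned medium minus EGF alone, on quantile normalized values (2 arrays per group), and the bar is its 95% interval from limma. Filled points had an adjusted p under 0.05, and Srsf9 at 0.83 and Hnrnpf at 0.58 also passed under all 3 scalings; the bars of Srsf7 and Snrpn, whose probe sets are dim, are the widest.

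Across all genes tested, the 2 EGF arrays differed from each other with an SD of 0.25 log2, the 2 ECCM arrays with one of 0.21 log2, and arrays of different conditions by 0.45 to 0.47 log2. Across the 45 splicing genes the SDs were 0.25 and 0.19 log2 within conditions and 0.22 to 0.29 log2 between them. With all 45 splicing genes counted, the spread between conditions was close to that between replicates. The dim Srsf7 weighs on these SDs, at 5.92 and 4.79 log2 on the EGF arrays and 5.48 and 4.67 log2 on the ECCM arrays. SDs without it were not computed.

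Srsf9 and Hnrnpf are shown with the 300 bases around a transcript start that RefSeq lists for each (assembly GRCr8, 250 bases before it and 50 after), because they are the members whose RNA level rose. Capitals mark a searched motif. The Srsf9 window is chr12:46945098-46945397 on the minus strand, with 72.7% G and C. The Hnrnpf window is chr4:152755418-152755717 on the plus strand, with 68.7% G and C, at the first of 3 starts listed for that gene.
Srsf9: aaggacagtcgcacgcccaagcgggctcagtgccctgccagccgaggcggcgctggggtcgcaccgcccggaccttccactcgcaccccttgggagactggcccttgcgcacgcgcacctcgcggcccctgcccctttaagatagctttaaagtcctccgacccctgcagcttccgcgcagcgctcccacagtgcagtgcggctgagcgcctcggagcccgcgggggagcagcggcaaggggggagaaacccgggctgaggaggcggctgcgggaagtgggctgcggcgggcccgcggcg
Hnrnpf: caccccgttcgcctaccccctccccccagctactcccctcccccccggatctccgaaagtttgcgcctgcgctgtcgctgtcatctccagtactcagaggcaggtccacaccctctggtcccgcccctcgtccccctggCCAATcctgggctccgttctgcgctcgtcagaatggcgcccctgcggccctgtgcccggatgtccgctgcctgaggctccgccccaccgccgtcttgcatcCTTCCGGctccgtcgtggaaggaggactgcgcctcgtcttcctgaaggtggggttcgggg
The Hnrnpf window holds CTTCCGG, the reverse complement of the ETS motif CCGGAAG, beginning 10 bases before the start, and the CCAAT box (CCAAT) beginning 111 bases before it. The Srsf9 window holds 0 matches to the 6 motifs searched.

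Srsf9 codes for a small SR protein, and its single probe set (Entrez gene 288701) read 10.93 and 10.20 log2 on the EGF arrays and 11.45 and 11.33 log2 on the ECCM arrays. Both conditioned-medium arrays lay above both EGF arrays, and the EGF arrays lay far apart, with an SD of 0.52 log2 (n = 2) against 0.08 log2 (n = 2) in conditioned medium. The difference was 0.83 ± 0.17 log2 (SE, 95% interval 0.44 to 1.21, limma adjusted p = 0.00429). It was 1.14 log2 (limma adjusted p = 1.45e-10) as deposited and 0.58 log2 (limma adjusted p = 0.0259) median-centred. The deposited p does not weigh the gene's own spread, an SD of 0.42 log2 between the EGF arrays (n = 2). The call depended on how limma estimated the spread, with an adjusted p of 0.0748 without the intensity trend and 0.202 with robust estimates. Without EGF replicate 2 the difference was 0.46 log2 (limma adjusted p = 0.0326), and 0.17 log2 median-centred (limma adjusted p = 0.345).

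Hnrnpf codes for hnRNP F, which binds G-rich stretches of RNA, and its single probe set (Entrez gene 64200) read 10.21 and 9.96 log2 on the EGF arrays and 10.69 and 10.63 log2 on the ECCM arrays. The groups did not overlap, and the lower conditioned-medium array was well above the higher EGF array. The difference was 0.58 ± 0.09 log2 (SE, 95% interval 0.37 to 0.78, limma adjusted p = 8.55e-04). It was 0.90 log2 (limma adjusted p = 2.19e-06) as deposited and 0.33 log2 (limma adjusted p = 0.0347) median-centred. Neither Srsf9 nor Hnrnpf passed under all 3 scalings with EGF replicate 2 left out or with either ECCM array left out (0 of 45 rose each time), and both passed without EGF replicate 1.

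**Figure D2:**
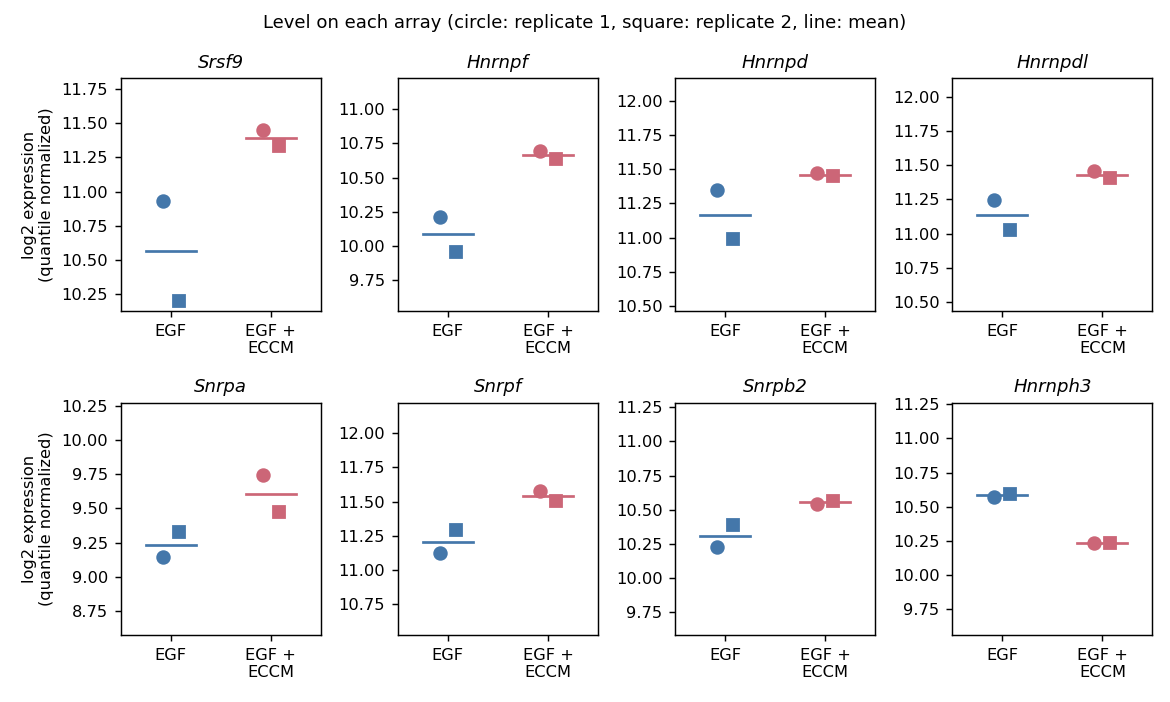
Each panel is 1 of the 8 genes with a limma adjusted p under 0.05 on quantile normalized values; points are the 2 arrays of EGF alone (left) and of EGF with conditioned medium (right), lines are means, and the vertical axes are log2 levels. The groups do not overlap in any panel; the EGF arrays of Srsf9 lie at 10.93 and 10.20, and Hnrnph3 is the 1 gene that is lower with conditioned medium.

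On quantile normalized values alone limma called 7 of the 45 genes higher and 1 lower, beside 16.5% and 14.6% of all genes. In 13 of the 45 both conditioned-medium arrays lay above both EGF arrays and in 7 below, beside 33.6% and 32.6% of all genes. Of the 8 called genes, Srsf9 and Hnrnpf were the 2 that kept the call under all 3 scalings.

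The other SR protein genes differed little, in both directions, and the median of the 9 tested was -0.04 log2. Srsf2, which binds exonic enhancers, read 12.61 and 12.66 log2 on the EGF arrays and 12.85 and 12.75 log2 on the ECCM arrays. Its groups did not overlap, yet its difference of 0.16 ± 0.06 log2 (SE) missed the threshold (limma adjusted p = 0.0659). Srsf1, the founding SR protein, differed by 0.09 ± 0.07 log2 (SE, 95% interval -0.07 to 0.24), and Srsf11 by 0.11 ± 0.08 log2 (SE). Srsf6 (-0.04 log2), Srsf4 (-0.05 log2), Srsf5 (-0.09 log2) and Srsf10 (-0.15 log2) lay on the other side of 0 and did not pass on quantile normalized values. Median-centred each of them was called lower (limma adjusted p = 0.0302, 0.0182, 0.0133 and 0.00475). Srsf10, which works as a repressor once dephosphorylated, read 10.62 and 10.62 log2 on the EGF arrays and 10.54 and 10.40 log2 on the ECCM arrays, without overlap (95% interval -0.32 to 0.02).

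The single-symbol probe sets of Srsf3, Srsf7 and the pseudogene Srsf7-ps4 were dim. Those of Srsf3 and Srsf7-ps4 averaged 4.04 and 3.73 log2 as deposited, under the limit of 4.77 log2, and were not tested. Srsf7 read 5.92 and 4.79 log2 on the EGF arrays and 5.48 and 4.67 log2 on the ECCM arrays, so its groups overlapped and its interval ran from -1.13 to 0.58 log2. A further 8 probe sets that the platform assigns to several genes, each with a symbol of these families among them, were left out because their signal cannot be given to 1 gene. Of these, 2 list Srsf3 beside another symbol and were bright, at 12.44 and 9.28 log2 with differences of 0.15 and -0.01 log2, so the dim probe set does not show that Srsf3 RNA was scarce.

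Of the 17 hnRNP genes 1 rose and 0 fell (limma, also 1 and 0 at an unadjusted p under 0.05 under all 3 scalings), with a median of 0.03 log2. Hnrnpa1, which represses exons and opposes Srsf1 at many of them, read 12.13 and 12.03 log2 on the EGF arrays and 12.16 and 12.16 log2 on the ECCM arrays (0.08 ± 0.06 SE, 95% interval -0.05 to 0.22). Hnrnpc, a core packaging protein of nascent transcripts, differed by -0.01 ± 0.07 log2 (SE), and Hnrnpu, a nuclear scaffold protein, by 0.03 ± 0.06 log2 (SE). The groups of Hnrnpc and Hnrnpu overlapped, and those of Hnrnpa1 did not. Hnrnpa3 (-0.02 log2), Hnrnpab (-0.03 log2), Hnrnpll (-0.02 log2), Hnrnpa2b1 (0.03 log2), Hnrnpm (0.04 log2) and Hnrnpl (0.05 log2) lay as near 0, and the groups of each overlapped. For Hnrnpa2b1 this is the brightest probe set, and its others differed by 0.23 to 0.58 log2.

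The hnRNP F/H genes gave differences of both signs. Hnrnph3 read 10.57 and 10.60 log2 on the EGF arrays and 10.24 and 10.23 log2 on the ECCM arrays, so both conditioned-medium arrays were below both EGF arrays. It was the 1 member called lower on quantile normalized values (-0.35 ± 0.07 SE, limma adjusted p = 0.00409). Median-centred its difference was -0.60 log2 (limma adjusted p = 4.19e-04), but as deposited it was -0.03 log2 (limma adjusted p = 0.875), so it did not fall by the rule. Its call on quantile normalized values was lost with any 1 array but EGF replicate 1 left out, though the difference stayed between -0.36 and -0.34 log2. Hnrnph1, which also binds runs of G, differed by -0.12 ± 0.07 log2 (SE), Hnrnpa0 by -0.13 ± 0.06 log2 (SE) and Hnrnpul1 by -0.09 ± 0.09 log2 (SE), and none of the 3 passed on quantile normalized values.

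Hnrnpd, also called AUF1, which binds AU-rich elements of messenger RNAs, read 11.35 and 10.99 log2 on the EGF arrays and 11.47 and 11.45 log2 on the ECCM arrays. The groups did not overlap, and its difference of 0.29 ± 0.10 log2 (SE) was just past the threshold (limma adjusted p = 0.0492). Its relative Hnrnpdl read 11.25 and 11.03 log2, then 11.46 and 11.41 log2, also without overlap (0.29 ± 0.08 SE, limma adjusted p = 0.0182). The Hnrnpd difference was 0.47 log2 without EGF replicate 1 and 0.11 log2 without EGF replicate 2 (limma adjusted p = 0.293), and its call was also lost with either ECCM array left out, without the filter on dim probe sets (limma adjusted p = 0.0582), with robust estimates and without the intensity trend. The Hnrnpdl call was lost with any 1 array but EGF replicate 1 left out, and without EGF replicate 2 its difference was 0.19 log2. Median-centred the differences of Hnrnpd and Hnrnpdl were 0.04 and 0.05 log2 and did not pass. Hnrnpr read 11.96 and 11.40 log2 on the EGF arrays and 11.80 and 11.77 log2 on the ECCM arrays (0.10 ± 0.14 SE). Its direction turned with 1 array, at 0.38 log2 without EGF replicate 1 (limma adjusted p = 0.0275) and -0.18 log2 without EGF replicate 2 (limma adjusted p = 0.136). In Srsf9, Hnrnpf, Hnrnpd, Hnrnpdl and Hnrnpr alike EGF replicate 2 was the lowest of the 4 arrays, as in Hnrnpa1, Srsf1 and other members. In Snrpa, Snrpb2 and Snrpf EGF replicate 1 was the lowest.

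The 9 genes of the SF3A and SF3B complexes, which hold the U2 snRNP on the branch point, spanned -0.16 to 0.17 log2. All 9 intervals lay within 0.5 log2 of 0. These values are for the brightest probe set of each gene. By the rule 0 rose and 0 fell, and 0 were called on quantile normalized values (limma; 1 higher and 1 lower at an unadjusted p under 0.05 on that scale, beside 2521 and 2284 of all 11492 genes). Sf3b1, the SF3B subunit that contacts the branch point region, read 11.91 and 11.98 log2 on the EGF arrays and 11.99 and 11.95 log2 on the ECCM arrays, so its groups overlapped (0.03 ± 0.06 SE, 95% interval -0.11 to 0.16). At the ends of the range were Sf3b2 and Sf3b6. Sf3b2 read 11.16 and 11.22 log2, then 11.06 and 11.00 log2 (-0.16 ± 0.07 SE, limma adjusted p = 0.109). Sf3b6, a small subunit beside the branch point, read 11.65 and 11.62 log2, then 11.89 and 11.72 log2 (0.17 ± 0.07 SE, limma adjusted p = 0.093). The groups of Sf3b2 and Sf3b6 did not overlap, but neither passed on quantile normalized values. Median-centred Sf3b2 was called lower (limma adjusted p = 0.00391), and as deposited Sf3b6 was called higher (limma adjusted p = 0.00784). Sf3b3 differed by -0.12 log2, Sf3a2 by 0.03 log2, Sf3b4 by 0.04 log2, Sf3a3 by 0.08 log2, Sf3b5 by 0.10 log2 and Sf3a1 by 0.17 log2. A dimmer Sf3a1 probe set had the opposite sign, at -0.33 ± 0.13 log2 (SE, limma adjusted p = 0.0846).

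The 10 snRNP genes had a median difference of 0.14 log2, and 0 rose and 0 fell by the rule (limma, also 0 and 0 at an unadjusted p under 0.05 under all 3 scalings). On quantile normalized values 3 were higher and 0 lower, beside 16.5% and 14.6% of all genes. Snrpa, an RNA-binding protein of the U1 snRNP, read 9.14 and 9.33 log2 on the EGF arrays and 9.74 and 9.47 log2 on the ECCM arrays (0.37 ± 0.11 SE, limma adjusted p = 0.0242). Snrpb2, its relative in the U2 snRNP, read 10.23 and 10.39 log2, then 10.54 and 10.56 log2 (0.25 ± 0.08 SE, limma adjusted p = 0.0399). Snrpf, an Sm ring protein, read 11.12 and 11.29 log2, then 11.57 and 11.50 log2 (0.33 ± 0.08 SE, limma adjusted p = 0.00685). The groups of these 3 genes did not overlap. Snrpa and Snrpb2 lost the call with any 1 array left out, Snrpf with any but EGF replicate 2, and all 3 without the intensity trend. Snrpa was 0.24 log2 without ECCM replicate 1 (limma adjusted p = 0.261), and Snrpb2 was 0.16 log2 without EGF replicate 1 (limma adjusted p = 0.191). Median-centred the differences of Snrpa, Snrpb2 and Snrpf were 0.13, 0.00 and 0.09 log2 and did not pass.

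By their brightest single-symbol probe sets, the other Sm ring genes tested lay closer to 0 than Snrpf. Whether they differed from it was not tested. Snrpe read 12.42 and 12.46 log2 on the EGF arrays and 12.43 and 12.45 log2 on the ECCM arrays, and its groups overlapped (95% interval -0.13 to 0.13). Snrpb (-0.03 log2), Snrpd3 (0.01 log2) and Snrpd2 (0.11 log2) did not pass on quantile normalized values. Snrpd1 read 9.29 and 9.40 log2, then 9.80 and 9.22 log2, so its conditioned-medium arrays lay on both sides of the EGF arrays (0.16 ± 0.15 SE). Without ECCM replicate 1 it was -0.13 log2 and without ECCM replicate 2 0.45 log2 (limma adjusted p = 0.0495). A dimmer Snrpd1 probe set, at 6.03 log2 as deposited, differed by -0.35 ± 0.23 log2 (SE). Snrpa1, a U2 snRNP protein, differed by 0.06 ± 0.10 log2 (SE). Snrpn, the form of the Sm B protein found in neurons, had a probe set close to the limit for dim signals, at 4.80 log2 as deposited, and its interval of -0.46 to 0.82 log2 leaves its direction unsettled. The platform lists Snrpn together with Snurf for 2 bright probe sets, at 11.66 and 10.45 log2, which were not tested here. Both were lower with conditioned medium, with differences of -0.39 and -0.28 log2, opposite in sign to the dim probe set.

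The scaling set most calls. As deposited limma called 21 of the 45 higher and 0 lower, beside 40.4% and 1.78% of all genes. Median-centred 2 were higher and 16 lower, beside 10.2% and 32.2% of all genes. The median of the 45 was 0.36, 0.04 and -0.21 log2 on deposited, quantile normalized and median-centred values, near that of all genes each time.

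**Figure D3:**
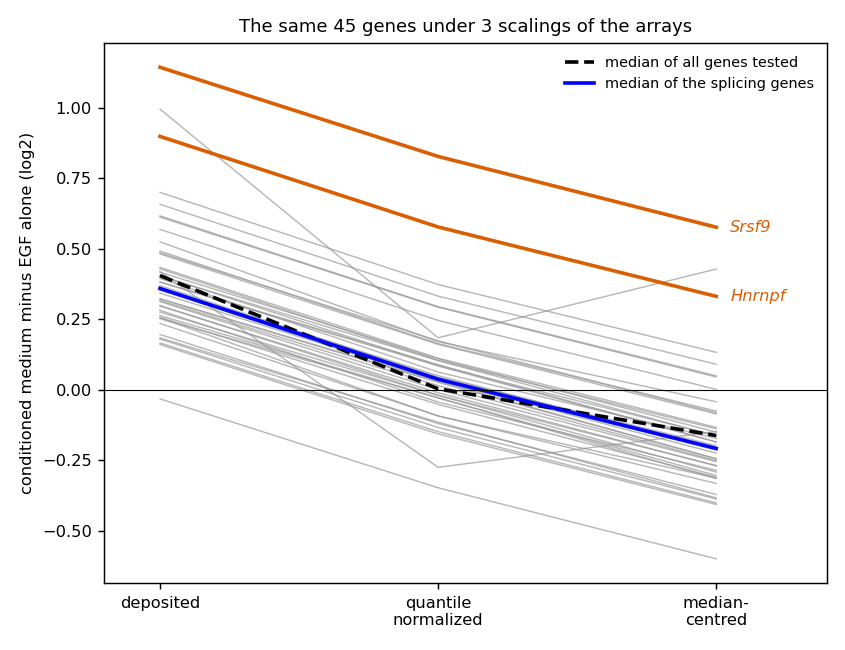
Lines join the log2 difference (conditioned medium minus EGF alone, vertical axis) of each of the 45 tested genes on deposited, quantile normalized and median-centred values, with the medians of the splicing genes and of all genes tested. The medians of the splicing genes, 0.36, 0.04 and -0.21 log2, stay beside those of all genes, 0.40, 0.00 and -0.16 log2, and the lines of Srsf9 and Hnrnpf stay above 0.

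Of the 47 genes 15 had several probe sets, which bind different stretches of a gene's transcripts. For 8 of the 15 the probe sets differed in sign and for 5 by over 0.5 log2, with dim probe sets counted. The widest gap, in Srsf10, lay between probe sets too dim to test, at 4.10 and 3.52 log2 as deposited. The like shares over all genes with several probe sets were not computed. Hnrnpa2b1, an hnRNP of splicing and RNA transport, had 4 probe sets. Its brightest read 12.63 and 12.42 log2 on the EGF arrays and 12.71 and 12.40 log2 on the ECCM arrays, so the groups overlapped. A dimmer one read 9.78 and 10.03 log2, then 10.43 and 10.55 log2. This difference of 0.58 ± 0.10 log2 (SE) passed under all 3 scalings when every probe set was tested alone (limma adjusted p = 0.00163 on quantile normalized values). The other 2 Hnrnpa2b1 probe sets differed by 0.50 and 0.23 log2. Hnrnpdl gave 0.29 log2 in its brightest probe set and -0.17 and -0.26 log2 in the others, so its call rests on 1 probe set. The probe set at -0.26 log2 was dim, at 5.17 log2 as deposited (SE 0.37 log2). The second Srsf2 probe set read 10.78 and 10.73 log2, then 11.07 and 11.07 log2 (0.32 ± 0.07 SE, limma adjusted p = 0.00655), higher on quantile normalized values without passing under all 3 scalings. Hnrnph3 was lower in its second probe set too (-0.19 log2), which did not pass on quantile normalized values. Of 71 probe sets of these genes that were tested, 3 rose and 0 fell under all 3 scalings, beside 8.04% and 1.51% of all 16010 probe sets. Whether the probe sets of a gene detect different transcripts was not tested.

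**Figure D4:**
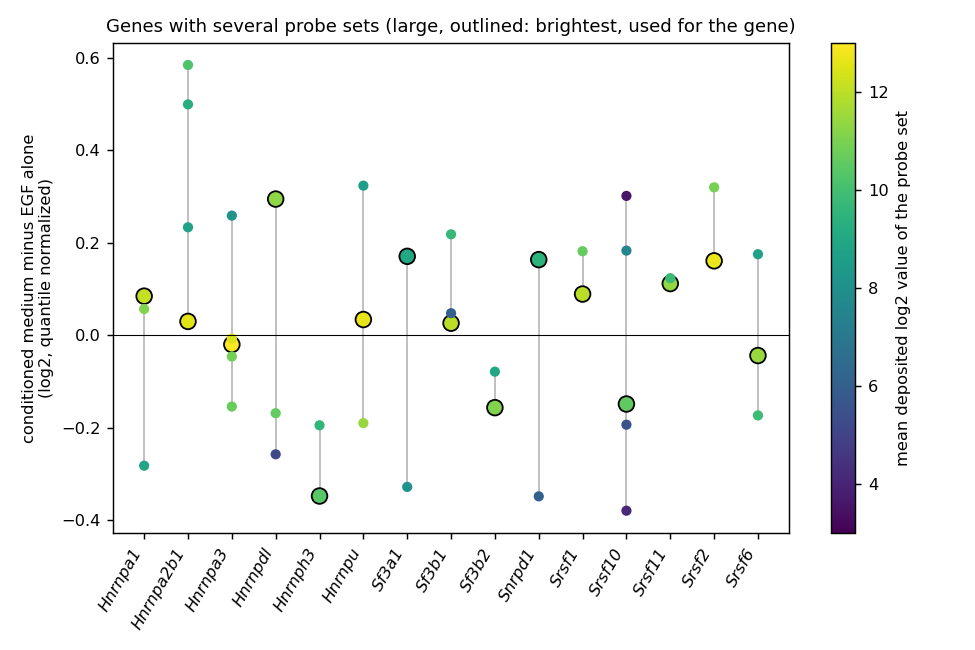
Each column is 1 of the 15 genes with several probe sets, and points are the log2 differences of its probe sets (conditioned medium minus EGF alone, quantile normalized, 2 arrays per group), with the brightest marked. For Hnrnpa2b1 the brightest lies at 0.03 and the others between 0.23 and 0.58, and for Hnrnpdl the brightest lies at 0.29 and the others below 0.

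In promoter letters the splicing genes held the ETS motif more often than tested genes at large, as a description. Of the 47 genes 44 matched the RefSeq promoter table, and 14 of the 44 (31.8%) had CCGGAAG or its reverse complement CTTCCGG in a listed window, beside 17.8% of the 9544 tested genes with an entry and 9.63% of all 27457 genes with one. For CCAAT or ATTGG the shares were 54.5%, 39.1% and 39.6%. For the E-box CACGTG they were 11.4%, 10% and 7.08%, and for TATAAA or TTTATA 15.9%, 7.11% and 15.3%. The palindromic NRF1 motif was in 2 of the 44 (4.55%), beside 1.96% and 0.954%, and the E2F motif TTTCCCGC or GCGGGAAA in 3 (6.82%), beside 2.15% and 1.09%. Both strands were searched, and none of the 6 motifs contains another. The median G and C content was 61% in the windows of the splicing genes, 60.7% in those of tested genes and 51.7% in all. Of the 8 genes called on quantile normalized values, Hnrnpd, Hnrnpf and Snrpb2 hold the ETS motif. A match is a stretch of letters, not a measured binding site.

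The rest of the splicing machinery was described from 8 lists of genes with other symbols. In 6 lists of general factors (SR-related proteins and SR kinases, U1 and U2 recruitment, tri-snRNP and Prp19 complexes, LSm proteins and snRNP assembly, minor spliceosome, exon junction complex), 0 of 113 tested genes rose and 0 fell (limma, also 0 and 0 at an unadjusted p under 0.05 under all 3 scalings). On quantile normalized values 10 were higher and 8 lower, also beside 16.5% and 14.6% of all genes, the median was 0.03 log2 and the range -0.44 to 0.44 log2. The ends of that range were Luc7l, a U1 snRNP factor, and Scaf11, an SR-related protein. Among 34 tri-snRNP, Prp19 and step genes the range was -0.29 log2 for Snrnp200, a U5 helicase, to 0.34 log2 for Slu7, a factor of the second splicing step. Among 25 LSm and assembly genes 6 were higher and 2 lower on quantile normalized values, beside 16.5% and 14.6% of all genes, with Lsm2 at 0.38 log2, Smn1, the gene of the assembly factor SMN, at 0.35 log2 and Lsm11, of the U7 snRNP, at -0.43 log2.

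Among 23 hnRNP-like genes with other symbols 0 rose and 1 fell (limma, also 0 and 1 at an unadjusted p under 0.05 under all 3 scalings). The gene that fell was Pcbp4, a poly(C)-binding protein, which read 12.34 and 12.42 log2 on the EGF arrays and 11.60 and 11.75 log2 on the ECCM arrays (-0.71 ± 0.07 SE). It did not pass with the mean of all probe sets, with the replicate number as a block or with any 1 array left out. Ptbp1, which represses neuronal exons outside neurons, read 11.21 and 11.22 log2, then 11.59 and 11.75 log2, without overlap. It was higher on quantile normalized values (0.46 ± 0.07 SE, limma adjusted p = 7.73e-04) but did not pass under all 3 scalings. Ptbp2, the paralog that neurons use and a gene of the next list, differed by -0.24 ± 0.15 log2 (SE) and did not pass on quantile normalized values.

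Among 20 tested neuronal and tissue-restricted splicing regulators 5 fell and 1 rose, beside the 1.78% and 9.12% of all genes, and the median was -0.40 log2. Srrm3, which promotes neuronal microexons, read 7.71 and 7.65 log2 on the EGF arrays and 6.57 and 6.64 log2 on the ECCM arrays (-1.07 ± 0.13 SE). Celf4, an RNA-binding protein of neurons, read 11.32 and 11.38 log2, then 10.44 and 10.41 log2 (-0.93 ± 0.07 SE). Rbfox1 (-0.88 log2), Celf5 (-0.85 log2) and Elavl4 (-0.80 log2) also fell, and the groups of these 5 genes did not overlap. Rbm20, a regulator known from heart muscle, rose by 1.13 ± 0.26 log2 (SE), from 5.22 and 5.38 log2 to 6.83 and 6.03 log2. With the mean of all probe sets 4 of the 20 fell and 0 rose, and Rbfox1 and Rbm20 lost the call. Without the filter on dim probe sets 3 of 23 fell and 1 rose. With the replicate number as a block 0 of the 20 fell. The number that fell was 1 without EGF replicate 1, 0 without EGF replicate 2, 2 when ECCM replicate 1 was left out and 0 when ECCM replicate 2 was. Rbm20 rose in the last of these and in the fit with the block, but not in the other 3 leave-outs.

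**Figure D5:**
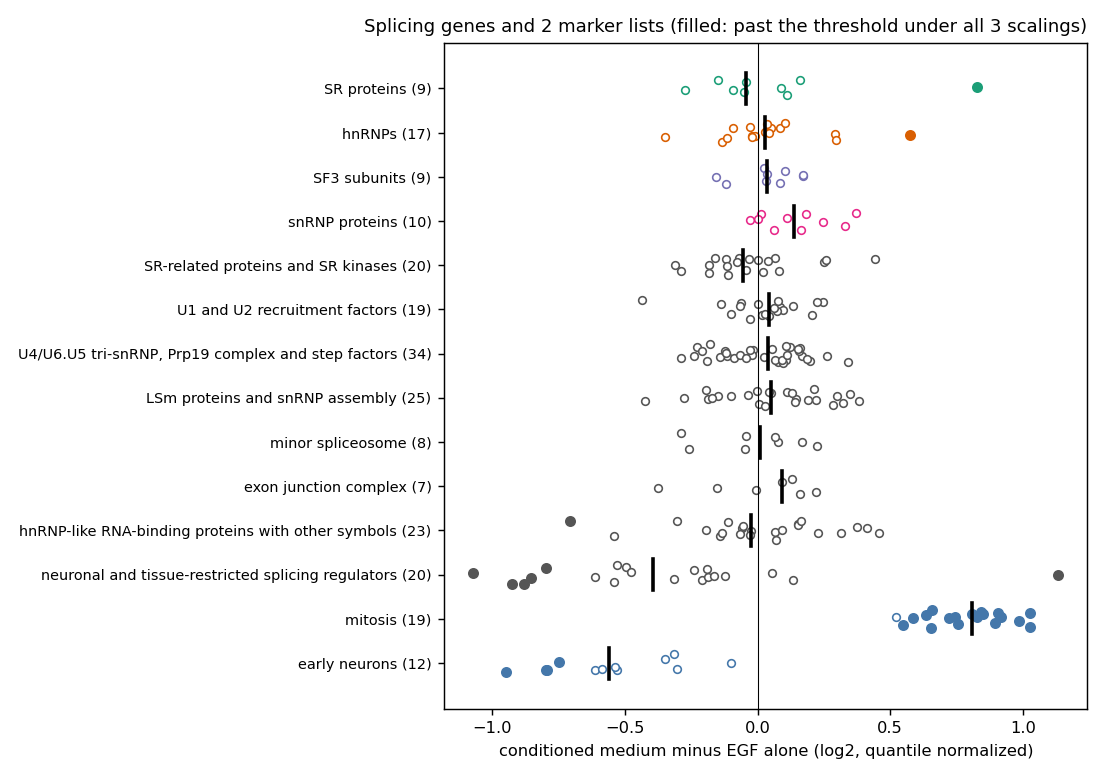
Points are genes placed by log2 difference (conditioned medium minus EGF alone, quantile normalized, 2 arrays per group), 1 row per list with the number tested; filled points passed under all 3 scalings and bars are list medians. The splicing factors, hnRNPs and general splicing lists sit around 0, the neuronal regulators have a median of -0.40 log2, and the mitosis and early neuron markers have medians of 0.81 and -0.56 log2. Elavl3, Elavl4 and Rbfox3 are in both the neuronal regulator and the early neuron row.

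Markers of cell state and cell type moved between the same arrays. Of 19 mitosis genes 18 rose, with mean levels of 9.34 to 9.38 log2 with EGF alone and 10.14 to 10.15 log2 with conditioned medium. Of 17 DNA replication genes 5 rose, with mean levels of 9.53 to 9.57 and 9.95 to 9.96 log2. Of 12 early neuron genes 4 fell, with mean levels of 9.79 to 9.91 and 9.29 to 9.31 log2. Elavl3, Elavl4 and Rbfox3 are in this list and in that of the neuronal regulators. Of 11 photoreceptor genes 8 fell, and of 11 retinal progenitor genes 5 rose and 0 fell. On quantile normalized values 6 of the progenitor genes were higher and 1 lower, beside 16.5% and 14.6% of all genes. Of 10 microglia, 8 mesenchymal, 6 endothelial and 6 lens markers tested, 7, 7, 2 and 2 rose. Of all genes tested 9.12% rose and 1.78% fell. The array held 13, 12, 10 and 12 of these markers, and the rest were too dim to test. Those tested had median deposited levels of 5.64, 6.31, 5.51 and 5.49 log2, against the limit of 4.77 log2. The filter took the mean of all 4 arrays, so a dim marker could pass it through the group where it was higher. The gap between the 3' and 5' actin control probe sets, which grows as RNA degrades, was 1.99 and 2.085 log2 on the EGF arrays but 1.54 and 1.37 log2 on the ECCM arrays. The part of these shifts in the results for Srsf9, Hnrnpf and the neuronal regulators was not tested. In whole cultures, fewer cells of a type and less RNA per cell cannot be told apart.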

How the data were processed

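RNA of 4 neurosphere cultures, 2 per group, was hybridised to Affymetrix rat expression arrays. Per the series' design text, the authors processed the arrays with RMA in GenePattern, and the deposited values are log2 levels per probe set. The deposited array medians ran from 6.03 to 6.84 log2, so the values were quantile normalized here, with the deposited and the median-centred values as alternatives. Of 31099 probe sets, 20832 carry 1 symbol in the platform annotation, 436 several and 9831 none. The brightest single-symbol probe set stood for each of 14218 genes, and those among the lowest 30% of probe set means (under 4.77 log2) were left out, which kept 11492. Groups were compared with limma 3.58.1 in R 4.3.3 (lmFit and eBayes, whose prior variance followed mean intensity). The two-sided p-values were adjusted by Benjamini-Hochberg over all 11492 genes, with a threshold of 0.05. The limma fit was also run on simulated data, and the outcome is not used here to back any call. How the rule across scalings, or a gene with replicates as far apart as those of Srsf9, fares in simulation is not reported. Intervals use limma's moderated SE. The number of arrays limits the precision.

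All members that rose or fell and the 3 highest and 3 lowest of each group were to be named, with other members given by value. From the other lists, genes that rose or fell were to be named, at most 2 each way, and the further list genes named were chosen after their values were seen. Members and lists were chosen with earlier results of these data known. All 47 members matched RefSeq by gene ID and symbol. Alternatives were the scaling, the filter on dim probe sets, the mean of all probe sets, limma without trend or with robust estimates, the replicate number as a block, and each array left out in turn. A crossed block and tests of every probe set alone were added after seeing the data. Deviations of same-numbered arrays correlated at -0.03 (quantile normalized, 2 pairs).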

Additional observations from a re-analysis of the deposited data

How the results depend on the processing

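The count of splicing genes that rose was 2 (Srsf9 and Hnrnpf) and of those that fell 0, without a filter, with the lowest 50% left out, with the mean of all probe sets, and with the replicate number as a block or crossed; leaving out 1 array gave 0 to 2 that rose and 0 that fell. The 7 genes higher on quantile normalized values became 21 on deposited values, 2 on median-centred values, 1 without the intensity trend, and 0 to 5 with 1 array left out. The 1 gene lower became 0 on deposited values, 16 on median-centred values, 2 without a filter, and 0 to 1 with 1 array left out. The median difference of 0.04 log2 became 0.36 on deposited values, -0.21 on median-centred values and 0.02 to 0.06 with 1 array left out. The count that rose by the rule was not computed without the intensity trend or with robust estimates. On quantile normalized values Srsf9 missed the threshold in both fits (limma adjusted p = 0.0748 and 0.202), so it did not meet the rule there. Hnrnpf passed on that scale in both (limma adjusted p = 0.0276 and 2.02e-04). With the mean of all probe sets 7 genes were still higher, but Hnrnpa2b1 and Srsf2 stood in place of Hnrnpd and Hnrnpdl. Hnrnpdl turned to -0.044 log2 with the mean of all probe sets, and Sf3b1 to -0.25 log2 on median-centred values. The causes were not tested, apart from the scalings, which shift all genes. With the replicate block 7 members were higher and 1 lower, as without it; over all genes it moved the number that fell from 205 to 28, and the crossed block to 441, and 1 array left out to between 43 and 104. The labels do not say which numbered array came from which embryo pool. With 1 array left out, the lone array of a group is assumed to vary like the other group.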
